A study of Macaca mulatta with 80 samples.

Results

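Newborn dentate gyrus (DG) was compared with newborn CA3, the field it projects to, across 19,775 genes. The members were the 4 DG and 4 CA3 arrays whose source is newborn, 8 of the 80 arrays of the series, and DG and CA3 arrays that carry the same number in their titles (13 to 16) were compared as pairs. The study followed gene expression in the hippocampal formation of male rhesus monkeys (Macaca mulatta) after birth, in DG, CA3, CA1, the subiculum (Sub) and the entorhinal cortex (EC). It used 4 animals at each of 4 ages, which were 1 day (newborn), 6 months, 1 year and 6 to 12 years. The animals had no treatment or genetic change beyond the anaesthetic overdose before the brains were taken, and all groups used here share that preparation. DG and CA3 were cut out with all their layers from the middle of the hippocampal body, so each array holds neurons, glia and vessels together, and it cannot be told apart whether fewer cells of a type or less RNA per cell gives a lower signal.

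The dentate gyrus receives the entorhinal input to the hippocampus through its granule cells, whose axons, the mossy fibres, end on the proximal dendrites of CA3 pyramidal cells and on the mossy cells of the hilus. Granule cells are born late, many of them after birth, from progenitors that stay in the gyrus, while the pyramidal cells of CA3 are born before birth. The newborn gyrus therefore holds dividing precursors, young neurons and mature granule cells side by side.

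Each value below is a log2 signal of 1 probe set after quantile normalization of all 80 arrays, so a difference of 1 is a factor of 2 in signal, and signals of different genes are not comparable. Arrays are always given in the order of their numbers, 13, 14, 15 and 16. Differences are DG minus CA3 with the standard error (SE) of limma's paired fit, and a gene was called where its p, adjusted by Benjamini-Hochberg over all 19,775 genes, was under 0.05. The labels do not state that a number marks an animal, and the p-values measure the spread between these 4 pairs of arrays. Array-to-array correlations ran from 0.979 to 0.992 within DG, from 0.981 to 0.995 within CA3 and from 0.964 to 0.986 between them. The GAPDH 3'/5' log2 ratio, which rises as long RNA is lost, was 1.06 ± 0.11 (SD, n = 4) in DG and 1.14 ± 0.07 in CA3, with a two-sided exact sign-flip p of 0.25 where 0.125 is the smallest that 4 pairs can give. For actin the ratio was 3.32 ± 0.11 and 3.48 ± 0.18, with the same exact p of 0.25.

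Genes called higher in newborn DG included the granule cell markers GRP, RFX3 and CALB1, the radial glial genes VIM and TNC and SOX11 of young neurons. Those called lower included HAPLN4 of perineuronal nets, the CA3 markers CPNE4, HS3ST4 and NECTIN3, the CA2 marker RGS14 and the myelin gene CNP. Of 19,775 genes, 160 (0.809%) were called, 89 higher in DG (0.45%) and 71 lower (0.359%). All 160 had the same sign in the 4 pairs, which a call by the paired fit makes likely, so it is not separate evidence. Over all genes DG was higher in all 4 pairs in 1709 and lower in 2326. In 157 of the 160 the DG and CA3 arrays did not overlap. Such separation was not rare over the whole array, since all DG arrays lay above all CA3 arrays in 4.34% of genes and below them in 5.36%. The median size of a called difference was 0.94, and 71 differences were over 1 and 2 over 2. The median difference over all genes was −0.02.

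The number of called genes rested on the model and on single pairs. Without the pairing 539 genes (2.73%) were called, 301 higher in DG (1.52%) and 238 lower (1.2%), with 151 of the 160 among them. With the spread of all 20 newborn arrays the count was 1493 (7.55%), 818 higher (4.14%) and 675 lower (3.41%), with all 160 among them. With 3 pairs the count was 3 without number 13, 1 without 14, 38 without 15 and 113 without 16. With the GAPDH ratio as a covariate beside the pairing, limma called 0 genes, and 1448 had an unadjusted p under 0.05 against 2452 without it. Of the called genes 55.6% were higher in DG, against 65.8% on the values as deposited and 74.1% with each array centred on its median.

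**Figure D1:**
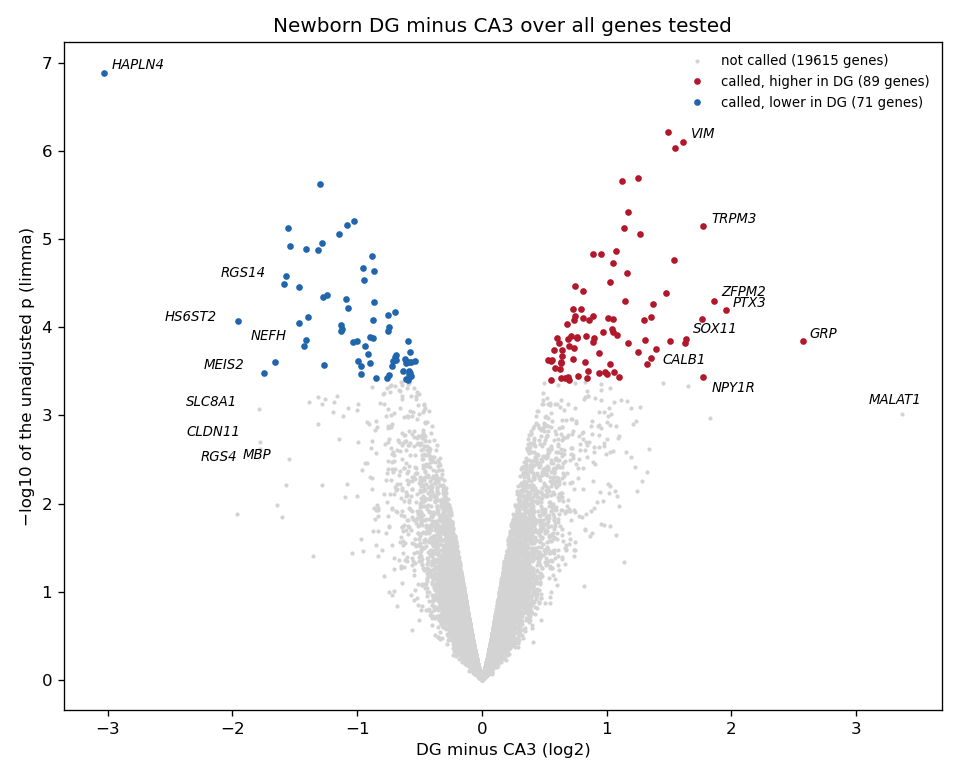
Difference between newborn DG and CA3 (x axis, log2) against the −log10 of the unadjusted limma p (y axis) for each of the 19,775 genes, with called genes in red (89 higher in DG) and blue (71 lower). HAPLN4 stands farthest to the left at −3.03, while MALAT1, the gene farthest to the right at 3.37, is grey because its arrays spread too widely to be called.

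Of 11 measured granule cell markers 3 were called higher in DG (GRP, RFX3 and CALB1) and 0 lower, against 0.45% of all genes higher, and 5 were called higher without the pairing. The median difference of the 11 was 0.68 against −0.02 over all genes. In 6 of the 11 every DG array lay above every CA3 array, which 4.34% of all genes showed. GRP, which encodes gastrin-releasing peptide, read 9.94, 9.64, 9.53 and 9.77 in DG and 7.46, 5.76, 7.91 and 7.44 in CA3. The groups were far apart, and CA3 number 14 was the lowest array. The difference was 2.58 ± 0.33 (5.96-fold, limma adjusted p = 0.0319), the largest among called genes higher in DG. RFX3, a transcription factor of ciliary genes, read 9.92, 9.81, 10.19 and 9.56 in DG and 8.47, 7.61, 8.22 and 8.67 in CA3, a difference of 1.63 ± 0.21 (adjusted p = 0.0321). CALB1, the calcium buffer calbindin of mature granule cells, read 8.80, 9.14, 9.22 and 8.70 in DG against 7.55, 7.0, 8.09 and 7.62 in CA3. It differed by 1.40 ± 0.18 (adjusted p = 0.0349), and its level in newborn CA1 (9.0) was close to that in DG (8.96).

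The other granule cell markers missed the threshold. SEMA5A, a guidance protein, differed by 0.90 ± 0.19 (limma adjusted p = 0.107), STXBP6, a regulator of vesicle fusion, by 0.95 ± 0.30 (adjusted p = 0.262) and GLIS3, a zinc finger factor, by 0.68 ± 0.13 (adjusted p = 0.0975), each without overlap of the arrays. MAML2 (0.41) and SYNPR (0.32) overlapped, and TDO2 and DSP were at low signals of 4.24 to 4.80 in all 8 arrays with differences of 0.13 and −0.02.

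PROX1, the transcription factor that sets granule cell identity, gave opposite answers by probe set. The probe set that stands for it, 242119_at, had the highest mean and read 7.19, 7.20, 7.13 and 7.30 in DG and 7.0, 7.29, 7.31 and 7.24 in CA3. Its arrays overlapped and its difference was −0.005 ± 0.09. Its 3 other probe sets separated the regions. The probe set 229376_at read 6.80, 6.03, 7.83 and 6.61 in DG and 4.67, 4.23, 4.53 and 4.61 in CA3, a difference of 2.30 ± 0.23 (limma adjusted p = 0.0177 with every single-symbol probe set tested on its own). For 228656_at the arrays read 6.59, 6.79, 7.42 and 6.74 against 5.34, 5.02, 5.17 and 5.04, a difference of 1.74 ± 0.15 (adjusted p = 0.0114). The last, 207401_at, differed by 0.88 ± 0.11 (adjusted p = 0.0290). In these 3 the mean signal in newborn CA1, Sub and EC lay between 4.33 and 5.18, at the level of CA3, so DG stood alone among the 5 regions, whereas 242119_at lay between 6.90 and 7.21 in all of them. This check was chosen after the values had been seen. Tested by probe set, 265 genes had a called probe set, and 77 of them were called only by a probe set other than the one chosen. Among genes described below, EGR1, NREP and ID4 were such cases.

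Among the 15 largest called differences in each direction, the DG side held transcription factors, matrix and receptor genes. PTX3, a secreted pentraxin that binds matrix and pathogens, read 6.08, 6.87, 6.92 and 5.87 in DG and 4.30, 4.23, 4.71 and 4.66 in CA3. The CA3 arrays sat near the floor of the array while the DG arrays did not, and the signals differed by 1.96 ± 0.22 (limma adjusted p = 0.0269). No detection call was used here, so against signals this low, as also in NPY1R and the PROX1 probe set 229376_at, the value is a difference of signals and can understate that of the transcript. ZFPM2 (FOG2), a cofactor of GATA factors, read 9.59, 9.84, 9.88 and 9.38 against 7.94, 7.97, 7.26 and 8.06. It differed by 1.86 ± 0.20 (3.64-fold, adjusted p = 0.0240), with CA3 number 15 below its 3 fellows.

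NPY1R, the Y1 receptor for neuropeptide Y, read 6.49, 6.95, 6.60 and 6.14 in DG and 4.93, 4.20, 4.75 and 5.20 in CA3, a difference of 1.78 ± 0.26 (limma adjusted p = 0.0479). TFAP2C, a transcription factor of progenitors, read 7.87, 7.63, 7.97 and 7.75 against 6.24, 6.23, 6.49 and 6.28. It had 1 of the smallest errors in the comparison (1.49 ± 0.08, adjusted p = 0.00455). CCDC80, a secreted matrix protein, read 9.86, 9.74, 10.10 and 9.71 against 8.17, 8.08, 8.61 and 8.34 and differed by 1.55 ± 0.09 (adjusted p = 0.00455). FLRT3, a membrane protein that binds latrophilins and guides synapse formation, read 9.99, 10.34, 10.83 and 10.23 against 8.96, 8.67, 8.65 and 9.07 (1.5 ± 0.19, adjusted p = 0.0319). TTC28, a tetratricopeptide protein of the spindle midzone, differed by 1.76 ± 0.20 (adjusted p = 0.0270) with CA3 number 14 lowest at 6.21. TRPM3, a cation channel, differed by 1.77 ± 0.14 (adjusted p = 0.0114) by its chosen probe set, while only 3 of its 7 other probe sets had the same sign. Of the 110 called genes with other probe sets, 81 had over 50% of them in the same direction and 16 had all of them opposite. With the mean of all probe sets in place of the chosen one, 29 of 56 called genes described here had a difference smaller by over 1.5 times, and 19 were no longer called. Those 19 were CACNA1A, CNP, FABP7, GFAP, HES1, KCNAB1, MEIS2, NFIA, NFIX, NPY1R, PDGFA, PIP5K1B, PRKCA, SLF1, SV2B, TNC, TRPM3, VWA5A and WIPF3. Without the pairing 4 of the 56 were not called, which were GFAP, MAL, PDGFA and VWA5A.

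**Figure D2:**
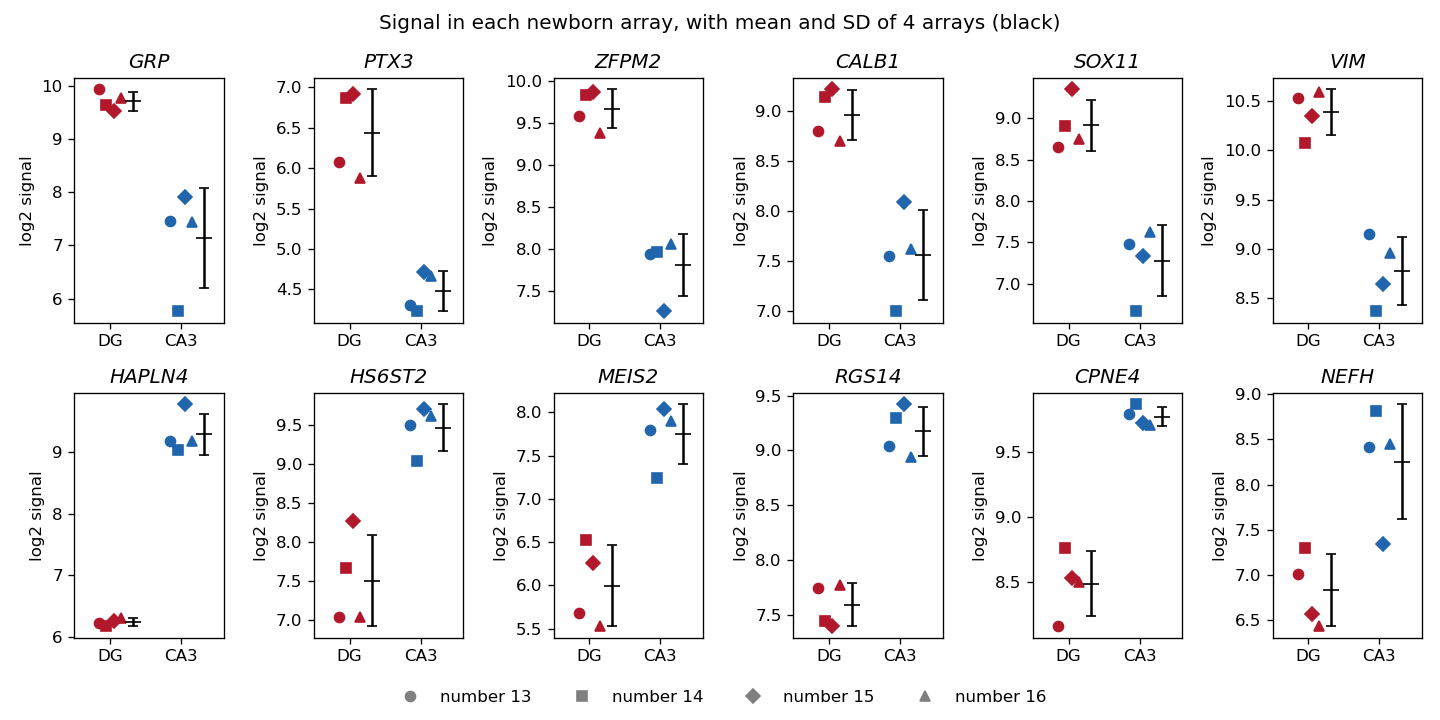
Log2 signal (y axis) of 12 called genes in each newborn DG (red) and CA3 (blue) array, with the symbol giving the array number and the black bar the mean and SD of 4 arrays; axes differ between panels and do not start at 0. In the upper row every DG array lies above every CA3 array, in the lower row below, and CA3 number 14 is the lowest array for GRP, CALB1, SOX11 and VIM.

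On the CA3 side HAPLN4 had the largest difference and the smallest adjusted p of the called genes. HAPLN4 encodes a link protein that ties hyaluronan to proteoglycans in perineuronal nets. It read 6.24, 6.18, 6.27 and 6.32 in DG and 9.17, 9.02, 9.76 and 9.17 in CA3, and no other called gene had its groups so far apart. The difference was −3.03 ± 0.13 (8.17-fold lower in DG, limma adjusted p = 0.00255). It was the only called gene among 18 of perineuronal and other matrix, against 0.359% of all genes lower, and the list's median was −0.04.

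HS6ST2, which adds sulphate to heparan sulphate, read 7.05, 7.67, 8.27 and 7.05 in DG and 9.50, 9.04, 9.71 and 9.62 in CA3 (−1.96 ± 0.23, limma adjusted p = 0.0272). GYG1, the primer of glycogen synthesis, read 8.37, 8.31, 8.40 and 8.37 against 9.97, 10.39, 9.52 and 9.84. Its DG arrays hardly varied, and it differed by −1.57 ± 0.15 (adjusted p = 0.0180). HHIP, an antagonist of hedgehog ligands, read 7.01, 7.25, 7.18 and 6.47 against 8.66, 9.06, 7.98 and 8.84 (−1.66 ± 0.23, adjusted p = 0.0400). NEFH, the heavy neurofilament subunit of large axons, read 7.01, 7.30, 6.56 and 6.44 against 8.41, 8.81, 7.34 and 8.44. The lowest CA3 array, number 15, was only slightly above the highest DG array, and the difference was −1.42 ± 0.19 (adjusted p = 0.0336). CBLN2, a secreted synapse organiser, differed by −1.47 ± 0.17 (adjusted p = 0.0284) and SH3GL2, the endophilin of synaptic vesicle recycling, by −1.54 ± 0.13 (adjusted p = 0.0132). The remaining leading genes were REM2, a small GTPase that inhibits calcium channels (−1.55), DRC9 (−1.46), WIPF3, a binder of WASP proteins (−1.41), the sodium, potassium and calcium exchanger SLC24A2 (−1.41), the copine CPNE8 (−1.39) and PRKCA, protein kinase C alpha (−1.32).

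Markers of CA3 pyramidal cells divided into 3 that were lower in DG and 8 that showed little difference. Of 11 measured, CPNE4, HS3ST4 and NECTIN3 were called lower against 0.359% of all genes, and the median of the 11 was −0.14. CPNE4, a calcium-dependent phospholipid-binding copine, read 8.16, 8.76, 8.53 and 8.50 in DG and 9.79, 9.86, 9.72 and 9.71 in CA3. The CA3 arrays agreed closely, and the difference was −1.28 ± 0.11 (limma adjusted p = 0.0132). HS3ST4, another heparan sulphate sulphotransferase, read 8.69, 8.85, 8.20 and 8.36 against 9.44, 10.12, 9.20 and 9.68 (−1.09 ± 0.12, adjusted p = 0.0239). NECTIN3, the adhesion molecule found on the pyramidal side of mossy fibre contacts, read 5.87, 6.59, 6.22 and 5.93 against 7.20, 7.73, 6.87 and 7.32 (−1.13 ± 0.13, adjusted p = 0.0286). Differences of the others ran from −0.28 for SOCS2 to 0.11 for TSPAN18. GRIK4, the kainate receptor subunit that defines CA3 in rodents, read 5.46 to 5.84 in all 8 arrays with a difference of 0.01, and BOK, IYD, MAS1, CDH24 and COCH were between −0.14 and 0.10. The DG and CA3 means were 3.99 and 4.13 for IYD, 5.22 and 5.11 for MAS1 and 5.71 and 5.75 for CDH24. These and GRIK4 lay below 5.98, the median of all gene means, so their small differences carry little information.

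CA2 and CA1 markers were read to see whether the CA3 piece reached its neighbours. RGS14, a CA2 gene that regulates G protein signalling and limits plasticity there, was the 1 called gene of 8 CA2 markers. Over all genes 0.359% were called lower. RGS14 read 7.74, 7.44, 7.40 and 7.77 in DG and 9.04, 9.29, 9.42 and 8.94 in CA3, and 8.63 on average in CA1. The difference was −1.58 ± 0.16 (limma adjusted p = 0.0200). PCP4, a calmodulin regulator, differed by −0.72 ± 0.15 (limma adjusted p = 0.113) with overlapping arrays. AMIGO2, STRIP2, CACNG5, MAP3K15, TNFAIP8L3 and CCDC3 lay between −0.22 and 0.06. Of these AMIGO2 (means of 4.90 in DG and 5.08 in CA3), CACNG5 (5.47 and 5.57) and MAP3K15 (4.53 and 4.54) lay below 5.98. So did the CA1 marker MAN1A1 (4.34 and 4.38), and such small differences carry little information. With pairing 0 CA1 markers of 7 were called by limma, against 0.809% of all genes. Without it 2 were called lower (POU3F1 and MPPED1), against 1.2%. The paired differences were −0.92 ± 0.17 for POU3F1 (adjusted p = 0.0831) and −0.84 ± 0.16 for MPPED1 (adjusted p = 0.0872), both transcripts whose newborn means were higher in CA1 (8.73 and 7.86) than in CA3 (7.29 and 7.02), and WFS1, FIBCD1, MAN1A1, CCN3 and GPR161 lay between −0.28 and −0.04.

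Hilar mossy cells lie inside the dissected gyrus. Of their 8 markers 0 were called by limma with pairing and 1 (CALB2, higher) without it. Over all genes 0.809% were called with pairing and 1.52% were called higher without it. CALB2, the calcium buffer calretinin, read 8.55, 8.30, 8.25 and 8.86 in DG and 7.83, 7.70, 7.85 and 7.82 in CA3 without overlap, and differed by 0.69 ± 0.12 (adjusted p = 0.0664). ADCYAP1, the neuropeptide PACAP, differed by 0.48 ± 0.11 (adjusted p = 0.125). CALCRL, DRD2, CSF2RB, AJAP1, NMB and CARTPT were between −0.05 and 0.18, and in AJAP1 CA3 number 16 (6.85) was far below the other CA3 arrays (7.82 to 8.0). CALCRL (means of 4.76 in DG and 4.68 in CA3) and CSF2RB (4.44 and 4.41) were at low signals and carry little information.

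Genes of radial glia and neural stem cells were the list with most called members beside the transcription factors. Of 17 measured, 4 were higher in DG (VIM, TNC, FABP7 and HES1), 0 were lower, against 0.45% of all genes higher, and the median difference was 0.40 against −0.02 over all genes. Without the pairing 5 were called higher, against 1.52% of all genes. VIM, the intermediate filament vimentin, read 10.53, 10.08, 10.35 and 10.60 in DG and 9.15, 8.36, 8.64 and 8.95 in CA3. The regions were far apart and the pairs alike, with a difference of 1.61 ± 0.09 (3.06-fold, limma adjusted p = 0.00455). Its newborn mean in EC was higher still, at 10.77. TNC, the matrix glycoprotein tenascin C of germinal zones, read 10.12, 10.01, 10.11 and 9.85 against 8.55, 8.0, 8.95 and 8.67 (1.48 ± 0.15, adjusted p = 0.0222). FABP7, a lipid carrier made by radial glia, read 10.91, 10.65, 11.01 and 10.63 against 10.16, 9.82, 10.11 and 10.16 (0.74 ± 0.10, adjusted p = 0.0345). HES1, the Notch target that holds progenitors undifferentiated, read 7.93, 8.08, 8.11 and 8.02 against 7.27, 7.46, 7.71 and 7.37 (0.59 ± 0.08, adjusted p = 0.0431). PAX6, a progenitor transcription factor, differed by 0.64 ± 0.12 (adjusted p = 0.0872) and ID4, an inhibitor of differentiation, by 0.66 ± 0.14 (adjusted p = 0.115), both without overlap. With every single-symbol probe set tested on its own, another of ID4 differed by 0.68 ± 0.10 (limma adjusted p = 0.0392). Its remaining ones differed by 0.15 to 0.29 and were not called. Astrocytes share several of these genes, and GFAP differed in the same direction.

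Lists of later stages of the granule cell lineage had 1 called gene each, higher in DG, against 0.45% of all genes. NHLH1, a basic helix-loop-helix factor of neurons that have just left the cycle, was the 1 called gene of 10 for intermediate progenitors and neuroblasts. It read 6.87, 6.87, 7.16 and 7.29 in DG and 6.12, 6.26, 6.15 and 6.10 in CA3, which was also its level in CA1, Sub and EC (5.92 to 6.06), and differed by 0.89 ± 0.11 (limma adjusted p = 0.0321). EOMES (TBR2), the defining factor of intermediate progenitors, read 5.40, 5.44, 6.46 and 5.71 against 4.97, 4.72, 4.73 and 4.94. The groups did not overlap, but DG number 15 was well above the others and the difference of 0.91 ± 0.21 had an adjusted p of 0.130. INSM1, a zinc finger factor of the same stage, differed by 0.48 ± 0.08 (adjusted p = 0.0664), and ELAVL4, an RNA-binding protein, by −0.83 ± 0.27 (adjusted p = 0.280). The list's median was −0.01, and without the pairing 3 members were called higher, against 1.52% of all genes.

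SOX11, a transcription factor that drives young neurons to mature, was the 1 called gene of 24 for immature neurons and neurite outgrowth, whose median was 0.27. It read 8.66, 8.90, 9.35 and 8.75 in DG and 7.49, 6.66, 7.33 and 7.63 in CA3 (1.64 ± 0.21, 3.11-fold, limma adjusted p = 0.0319). SOX4, its close relative, read 10.67, 10.69, 11.21 and 10.56 against 9.67, 8.73, 9.19 and 9.73. Its difference of 1.46 ± 0.22 just missed (adjusted p = 0.0511), although 5 of 5 other probe sets had the same sign. With every single-symbol probe set tested on its own, this SOX4 probe set passed (limma adjusted p = 0.0428). So did others that differed by 1.20 (adjusted p = 0.00849) and 1.44 (adjusted p = 0.0157). The remaining ones differed by 0.005 to 0.19 and were not called. DCX, the microtubule protein doublecortin of migrating neurons, read 9.15, 9.53, 9.61 and 9.04 against 8.60, 8.07, 8.32 and 8.51 (0.96 ± 0.18, adjusted p = 0.0872). NREP (0.87), MARCKSL1 (0.79) and DPYSL5 (0.51) had adjusted p-values of 0.0868, 0.104 and 0.0783, and GAP43, the growth cone protein, lay the other way at −0.48 ± 0.09 (adjusted p = 0.0962). Tested by probe set, another of NREP differed by 1.31 ± 0.11 (limma adjusted p = 0.0114). Its remaining ones, at low signals, differed by 0.02 and 0.01. Without the pairing 6 of the 24 were called higher and 1 lower, against 1.52% and 1.2% of all genes.

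None of the 32 measured genes of cell proliferation was called by limma (the median difference was 0.04), nor by the fit without pairing. These fits called 0.809% and 2.73% of all genes. Since 0 of 32 is near those shares, it says little about dividing cells. With the spread of the 20 newborn arrays 2 were called higher, against 4.14% of all genes. PCNA, the polymerase clamp, read 7.20, 7.07, 7.49 and 6.82 in DG against 6.69, 6.48, 6.66 and 6.69 (0.52 ± 0.12, adjusted p = 0.143). TOP2A, the topoisomerase of dividing cells, was near the floor of the array in both, at 4.46 to 4.81 and 4.23 to 4.51 (0.31 ± 0.09, adjusted p = 0.215).

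**Figure D3:**
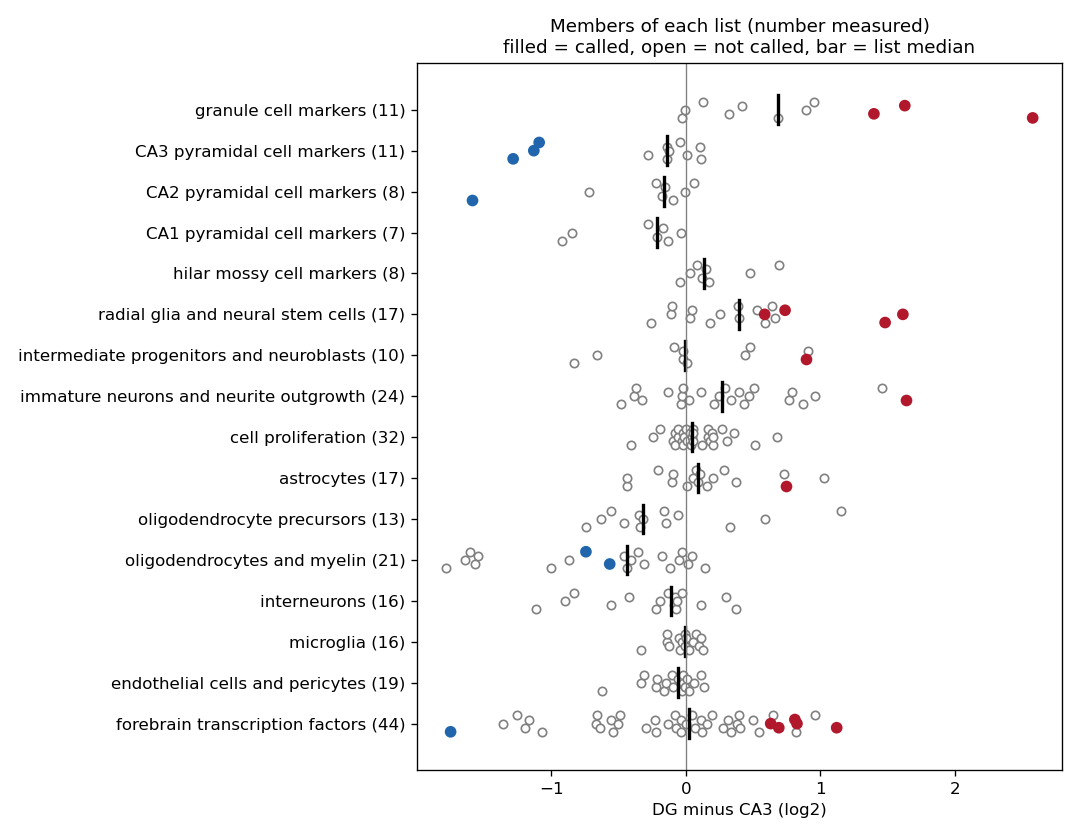
Difference between newborn DG and CA3 (x axis, log2) for each measured member of 16 gene lists, with the number measured after each name, called genes filled in red (higher in DG) or blue (lower), other genes open, and a black bar at the list's median. Medians run from −0.44 for oligodendrocytes and myelin to 0.68 for granule cell markers, and most lists spread on both sides of 0.

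Forebrain transcription factors had 6 called genes of 44, 5 higher in DG and 1 lower (0.45% and 0.359% of all genes), around a median of 0.02. Without the pairing 6 were called higher and 8 lower, against 1.52% and 1.2% of all genes. EMX2, a homeobox factor needed to form the gyrus, read 8.91, 8.68, 9.17 and 8.90 in DG and 7.80, 7.57, 8.02 and 7.78 in CA3. The offset was almost the same in each pair (1.12 ± 0.07, limma adjusted p = 0.00662). NFIA read 10.30, 9.97, 10.30 and 10.22 against 9.31, 9.24, 9.52 and 9.48 (0.81 ± 0.08, adjusted p = 0.0216), and NFIX, another nuclear factor I gene of glial and granule cell maturation, 9.62, 9.59, 9.43 and 9.37 against 8.80, 8.89, 8.86 and 8.92 (0.63 ± 0.09, adjusted p = 0.0441). ZBTB20, a zinc finger factor that marks the hippocampus proper, differed by 0.83 ± 0.12 (adjusted p = 0.0400). DMRTA2, which sets the hippocampal organiser, was flat at 5.76 to 5.83 in CA3 and read 6.62, 6.33, 6.47 and 6.57 in DG (0.69 ± 0.09, adjusted p = 0.0319).

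MEIS2, a homeobox cofactor, was the factor lower in DG. It read 5.68, 6.53, 6.26 and 5.53 in DG and 7.80, 7.25, 8.04 and 7.90 in CA3 (−1.75 ± 0.26, limma adjusted p = 0.0464). CA3 was itself low beside the other regions, whose means were 9.41 in CA1, 8.56 in Sub and 9.57 in EC. SOX5, a factor of deep cortical neurons, read 5.39, 5.87, 6.38 and 5.70 against 7.10, 6.82, 6.94 and 7.13 (−1.16 ± 0.19, adjusted p = 0.0612), and RORA, a nuclear receptor, differed by 0.96 ± 0.15 (adjusted p = 0.0512).

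Of astrocyte genes 1 was called higher in DG, and of myelin genes 2 lower, against 0.45% and 0.359% of all genes. GFAP, the astrocyte filament that neural stem cells also make, read 11.45, 11.005, 11.46 and 11.55 in DG and 10.81, 10.09, 10.82 and 10.76 in CA3 and was the 1 called gene of 17 for astrocytes (0.75 ± 0.09, limma adjusted p = 0.0270). ALDH1L1, a folate enzyme of astrocytes, differed by 1.02 ± 0.19 (adjusted p = 0.0866) and AQP4, the water channel of end feet, by 0.73 ± 0.16 (adjusted p = 0.116), while the list's median was 0.09. Without the pairing these last were the 2 called, against 1.52% of all genes higher, and GFAP was not (limma adjusted p = 0.0534).

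Of 21 genes of oligodendrocytes and myelin 2 were called lower in DG and 5 without the pairing, against 0.359% and 1.2% of all genes. With the spread of all 20 newborn arrays 11 were called lower and 0 higher, against 3.41% and 4.14%. The median was −0.44, and in 9 every DG array lay below every CA3 array, against 5.36% of all genes. CNP, an enzyme of myelin, read 9.59, 9.42, 9.53 and 9.61 in DG and 10.52, 9.83, 10.23 and 10.53 in CA3 (−0.74 ± 0.11, limma adjusted p = 0.0477). MAL, a myelin membrane protein, differed by −0.56 ± 0.08 (adjusted p = 0.0479). The widest differences in the list were not called. MBP, myelin basic protein, read 10.25, 10.47, 10.32 and 9.88 against 12.37, 10.88, 11.39 and 12.45 (−1.55 ± 0.34, adjusted p = 0.122), and CLDN11, the tight junction protein of myelin, 7.69, 7.84, 8.22 and 7.20 against 10.12, 8.52, 9.35 and 10.09 (−1.78 ± 0.36, adjusted p = 0.103). ENPP2 (−1.57) and OPALIN (−0.44) had adjusted p-values of 0.166 and 0.116. The mean level of the 21 genes was 6.39 to 6.72 in the DG arrays and 6.79 to 7.50 in the CA3 arrays.

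Oligodendrocyte precursor genes had 0 calls of 13 in limma's paired fit, against 0.809% of all genes. Without the pairing 2 were called lower, against 1.2%, and the median was −0.32. SOX10, the factor of the lineage, read 6.31, 6.18, 6.02 and 6.16 in DG and 7.07, 6.43, 7.07 and 7.07 in CA3 (−0.74 ± 0.14, adjusted p = 0.0868), and OLIG1 differed by −0.55 ± 0.10 (adjusted p = 0.0731). VCAN, the proteoglycan versican, lay the other way at 1.16 ± 0.25 (adjusted p = 0.113), with CA3 number 14 at 5.93 against 7.23 to 7.28 in the other 3.

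The CA3 arrays were not uniform in genes that are high in CA1 and the subiculum. NTS, the peptide neurotensin, read 7.61, 4.33, 4.91 and 7.92 in CA3 and 4.39, 4.04, 4.21 and 4.28 in DG, and its newborn means were 9.03 in CA1 and 8.89 in Sub. RGS4, a regulator of G protein signalling, read 11.01, 9.65, 9.61 and 10.97 in CA3, against 8.49, 8.74, 8.83 and 8.09 in DG, 10.49 in CA1 and 11.81 in Sub. CA3 numbers 13 and 16 were therefore high in both, as in MBP, CLDN11 and ENPP2. This pattern was noted after the values were seen, and its part in the myelin differences was not tested.

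Other cell types gave no call with pairing, where 0.809% of all genes were called, and 0 is near that share in lists of this size. Among 16 microglial, 19 endothelial and pericyte, 13 meningeal, 10 choroid plexus and 6 Cajal-Retzius genes 0 were called by limma's paired fit, with list medians between −0.08 and 0.02, and without the pairing 1 meningeal gene was called lower. RELN, the Cajal-Retzius cell protein reelin, read 10.13, 9.93, 9.77 and 8.72 in DG and 9.29, 8.30, 9.66 and 9.40 in CA3 (0.47 ± 0.34, adjusted p = 0.647). Of 16 interneuron genes 0 were called and 1 was called lower without the pairing (CNR1), against 1.2% of all genes. CNR1, the cannabinoid receptor of basket cells, read 7.79, 8.07, 8.34 and 7.76 against 9.36, 8.61, 9.09 and 9.36 (−1.11 ± 0.20, adjusted p = 0.0770), and PVALB, parvalbumin, differed by −0.90 ± 0.22 (adjusted p = 0.15).

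Among secreted signals and their pathways single genes were called, against 0.45% of all genes higher and 0.359% lower. ID3, a target of bone morphogenetic proteins (BMP) that keeps progenitors from differentiating, was the 1 called gene of 30 in the BMP and TGF-beta pathway. It read 7.44, 7.33, 7.54 and 7.99 in DG and 6.71, 6.35, 6.84 and 6.84 in CA3 (0.89 ± 0.10, limma adjusted p = 0.0270). All DG arrays lay above all CA3 arrays in 7 of the 30, and below in 0, against 4.34% and 5.36% of all genes. The BMP antagonist NOG differed by 0.72 ± 0.13 (adjusted p = 0.0799), the inhibitory SMAD7 by 0.64 ± 0.12 (adjusted p = 0.0868) and the ligand BMP2 by 0.60 ± 0.13 (adjusted p = 0.123).

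In the Wnt (34 genes) and Notch (18 genes) pathways 0 were called by limma with pairing, against 0.809% of all genes. Without it 2 each were called higher, against 1.52%. HES1, the called Notch target given above, was counted with radial glia and not in the list of 18. AXIN2, a feedback target of Wnt signalling, differed by 0.61 ± 0.12 (adjusted p = 0.104) by the probe set chosen, while its 3 other probe sets had the opposite sign, and the ligand WNT2 by −0.72 ± 0.16 (adjusted p = 0.126). HES6 (0.60) and HEY2 (0.64), basic helix-loop-helix factors tied to Notch, had adjusted p-values of 0.0962 and 0.113.

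Of 35 growth factors and receptors IGFBP5 was called higher and PDGFA lower, against 0.45% and 0.359% of all genes. IGFBP5, which binds insulin-like growth factors, read 9.52, 8.72, 9.32 and 8.75 in DG and 8.10, 6.79, 8.09 and 8.04 in CA3, with number 14 far below the others (1.32 ± 0.19, limma adjusted p = 0.0400). PDGFA, the ligand for oligodendrocyte precursors, read 6.76, 7.22, 6.77 and 7.0 against 7.28, 7.74, 7.35 and 7.81 (−0.61 ± 0.09, adjusted p = 0.0400). Its other probe set lay the other way (0.42 ± 0.17, adjusted p = 0.437), and on the mean of both the difference was −0.10 (adjusted p = 0.718). BDNF, the neurotrophin that mossy fibres carry, read 9.0, 9.05, 9.40 and 8.54 against 8.09, 7.89, 7.26 and 7.82 without overlap, and its difference of 1.24 ± 0.23 had an adjusted p of 0.0826. TGFA differed by 0.59 ± 0.10 (adjusted p = 0.0664). Of 31 neuropeptide genes and receptors NPY1R was the 1 called, and ADCYAP1R1, the PACAP receptor, differed by 0.83 ± 0.14 (adjusted p = 0.0623).

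Guidance and adhesion families had 0 calls in limma's paired fit. That fit called 0.809% of all genes, and 0 is near that share in lists of this size. The families were 19 Eph receptors and ephrins, 36 semaphorin, slit and netrin genes and 19 cadherins and protocadherins. In them the fit without pairing called 3, 1 and 2, against 2.73% of all genes. Eph receptors stood on both sides. EPHA7 read 8.42, 8.77, 8.88 and 8.30 in DG and 7.53, 6.39, 7.35 and 7.75 in CA3 (1.34 ± 0.28, adjusted p = 0.109), and EPHA5 5.86, 6.62, 6.25 and 5.75 against 7.59, 7.43, 7.05 and 7.67 (−1.32 ± 0.22, adjusted p = 0.0620). EPHB1 differed by 0.72 ± 0.18 (adjusted p = 0.162).

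Of 23 genes of calcium binding and signalling 1 was higher and 2 lower, against 0.45% and 0.359% of all genes, around a median of −0.38. Without the pairing 1 was called higher and 4 lower, against 1.52% and 1.2%. HPCAL1, a hippocalcin-like calcium sensor, read 9.61, 9.74, 9.45 and 9.51 in DG and 8.11, 7.71, 8.24 and 8.07 in CA3 (1.54 ± 0.14, limma adjusted p = 0.0143). Its relative NCALD, neurocalcin delta, lay the other way, at 8.72, 8.80, 8.30 and 8.68 against 9.38, 9.55, 9.51 and 9.55 (−0.87 ± 0.11, adjusted p = 0.0319). VSNL1, also a sensor of that family, differed by −0.89 ± 0.19 (adjusted p = 0.108). PRKCA read 8.56, 8.60, 8.36 and 8.04 against 9.61, 9.76, 9.98 and 9.47 (−1.32 ± 0.11, adjusted p = 0.0132), and PPP3CB, a calcineurin subunit, differed by −0.64 ± 0.13 (adjusted p = 0.104).

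Of 24 synaptic vesicle and release genes 1 was called lower, against 0.359% of all genes, and the median was −0.23. Without the pairing 3 were called lower and 0 higher, against 1.2% and 1.52%. SV2B, a vesicle glycoprotein, read 6.85, 7.04, 6.52 and 6.94 in DG and 7.90, 7.93, 7.58 and 8.04 in CA3, and DG was also below CA1, Sub and EC (7.71 to 7.95). It differed by −1.03 ± 0.08 (limma adjusted p = 0.0114). CPLX1, complexin, differed by −0.82 ± 0.14 (adjusted p = 0.0664) and SNAP25, of the fusion complex, by −0.64 ± 0.17 (adjusted p = 0.177). Of 21 genes of the postsynaptic density and synaptic adhesion 0 were called, against 0.809% of all genes. Without the pairing 3 were called lower, against 1.2%. NRXN3, a neurexin, differed by −1.31 ± 0.24 (adjusted p = 0.0848).

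Among channels CACNA1A, the pore of P/Q-type calcium channels, was the 1 called of 24 sodium and calcium channel genes (−0.54 ± 0.08, limma adjusted p = 0.0400), and KCNAB1, a potassium channel beta subunit, the 1 of 38 potassium and HCN channel genes. KCNAB1 read 7.64, 7.91, 7.63 and 7.49 in DG and 8.48, 8.31, 8.42 and 8.33 in CA3 (−0.72 ± 0.10, adjusted p = 0.0419). For CACNA1A 1 of 4 other probe sets had the same sign. Each of the 2 channel lists had its 1 call lower in DG, against 0.359% of all genes. None of 22 glutamate receptor, 12 GABA receptor and 29 monoamine, acetylcholine and adenosine receptor genes was called. Over all genes 0.809% were called, and counts of 0 are near that share in lists of this size. Without the pairing 1 of the last list was called lower, against 1.2%. The subunit GRIN3A differed by −0.84 ± 0.24 (adjusted p = 0.212), GRIA3 by 0.62 ± 0.27 (adjusted p = 0.426), GABRD, the tonic inhibition subunit of granule cells, by 0.31 ± 0.08 (adjusted p = 0.200) and CHRM3 by −0.59 ± 0.11 (adjusted p = 0.0770).

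Activity-induced genes had 1 call of 16, lower in DG, against 0.359% of all genes, and a median of −0.18. ARC, which removes AMPA receptors after activity, read 5.83, 5.83, 5.97 and 5.98 in DG and 6.58, 6.70, 6.76 and 6.40 in CA3, the highest mean of the 5 regions (−0.71 ± 0.10, limma adjusted p = 0.0400). EGR1 read 9.05, 9.26, 8.57 and 8.81 against 9.71, 9.63, 9.76 and 9.99 (−0.85 ± 0.16, adjusted p = 0.0826), and NR4A2 differed by −1.28 ± 0.32 (adjusted p = 0.166). With every single-symbol probe set tested on its own, another of EGR1 differed by −1.32 ± 0.17 without overlap (limma adjusted p = 0.0301). Its remaining one differed by −0.17 (adjusted p = 0.523). Among 10 genes of steroid receptors and the stress axis and 17 RGS proteins 0 were called by limma with pairing, against 0.809% of all genes. RGS14, called lower, was counted with the CA2 markers and not among the 17. Without the pairing SGK1 and RGS4 were called lower and RGS8 higher, against 1.2% and 1.52% of all genes. SGK1, a kinase induced by glucocorticoids, differed by −0.78 ± 0.13 (adjusted p = 0.0591) and RGS4 by −1.78 ± 0.37 (adjusted p = 0.109).

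Abundant housekeeping transcripts gave no call with pairing, where 0.809% of all genes were called. The median of 25 ribosomal protein genes was 0.23, with 6 of them higher in all DG arrays than in any CA3 array, and that of 31 genes of the mitochondrial respiratory chain was −0.25, with 6 lower in all, against 4.34% and 5.36% of all genes. The mean level of the respiratory chain genes was 9.52 to 9.68 in the DG arrays and 9.75 to 10.06 in the CA3 arrays. For 11 chaperones the median was −0.03. Limma called 0 genes in the 3 lists. Without the pairing it called 1 ribosomal gene higher and 1 respiratory chain gene lower, against 1.52% and 1.2% of all genes.

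MALAT1, a nuclear long non-coding RNA, had the widest difference of all genes by its chosen probe set and was not called. It read 10.35, 7.31, 10.72 and 10.84 in DG and 7.28, 6.29, 6.27 and 5.91 in CA3. DG number 14 lay at the level of the highest CA3 array, and the difference was 3.37 ± 0.60 (limma adjusted p = 0.0755). All 11 other probe sets had the same sign but differed far less, by 0.06 to 0.88. None of them was called with every single-symbol probe set tested on its own. The brightest of them had means of 8.16 in DG and 7.70 in CA3, a difference of 0.46 ± 0.30 (limma adjusted p = 0.643). By the chosen probe set the newborn means were 8.81 in CA1, 10.19 in Sub and 8.76 in EC. SLC8A1, the sodium and calcium exchanger, also just missed, with 5.44, 6.89, 6.69 and 5.87 in DG against 8.08, 7.62, 8.06 and 8.24 in CA3 (−1.78 ± 0.31, adjusted p = 0.0712).

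Each of the 2 regions was also set against the mean of newborn CA1, Sub and EC of the same number. These 2 comparisons share the 12 arrays of those regions, so their values stand side by side only. DG differed from them in 3271 genes (16.5%) and CA3 in 1935 (9.79%), with counts of 1903 to 4007 for DG when 1 number was left out (lowest without number 13) and of 330 (without number 13), 718 (without 14), 458 (without 15) and 3134 (without 16) for CA3. Without the pairing the counts were 3377 for DG and 3471 for CA3, and without number 16 DG had 2600 against the 3134 of CA3, so which region had more depended on the fit and on that number. The GAPDH ratio was 1.34 to 1.37 in those 3 regions, above DG and CA3, and its part in these counts was not tested. Of the 89 genes higher in DG than in CA3, 82 were also called higher in DG than in the 3 regions, 24 were called lower in CA3 than in them, and 17 were both. DG had the highest mean of 5 regions in 75 of the 89. Of the 71 genes lower in DG, 56 were called lower in DG than in the 3 regions, 36 higher in CA3, and 21 both. CA3 had the highest mean in 34 of the 71. The 89 and 71 genes were chosen with these same DG and CA3 arrays, so such counts follow in part from the choice. Over all 19,775 genes, 1627 were called higher in DG than in the 3 regions and 1644 lower. For CA3 907 were called higher and 1028 lower. How often DG or CA3 stood highest over all genes was not counted.

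The genes showed each arrangement. GRP was 2.76 ± 0.07 above the 3 regions in DG (limma adjusted p = 1.04e-07) and 0.19 ± 0.30 in CA3 (adjusted p = 0.740). ZFPM2, FLRT3 and PLEKHA2, a phosphoinositide-binding adaptor, were above them in both, by 2.49, 2.32 and 2.32 in DG and 0.63, 0.82 and 1.02 in CA3. ST18 (2.16 and 1.10) and VWA5A (2.04 and 1.27) did the same. HAPLN4 lay below the 3 regions in DG (−1.28 ± 0.11, adjusted p = 5.55e-05) and above them in CA3 (1.75 ± 0.07, adjusted p = 1.20e-05), with a mean of 8.80 in Sub and 6.37 in EC. WIPF3 was apart in CA3 alone by this test (1.64 ± 0.10, adjusted p = 0.000212, against 0.23 ± 0.11 and 0.193 in DG). MEIS2 was below the 3 regions in both, by −3.19 in DG and −1.44 in CA3, and MALAT1 in CA3 (−2.82 ± 0.11, adjusted p = 1.20e-05) with 0.55 ± 0.48 in DG (adjusted p = 0.553). CA4, a carbonic anhydrase, LATS2, a Hippo pathway kinase, and the ligand WNT5A were above them in CA3 by 2.19, 1.76 and 1.55 and in DG by 0.81, 1.23 and 1.71. Several of these sizes depended on the processing. Over 9 alternative fits the smallest DG differences were 0.51 for ST18, 0.91 for PLEKHA2 and 1.06 for VWA5A. In CA3 they were 0.59 for LATS2, 0.54 for WIPF3 and −0.56 for MALAT1. All 6 stayed called in each fit. GRP in DG (at least 2.70) and HAPLN4 in CA3 (at least 1.69) moved little.

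**Figure D4:**
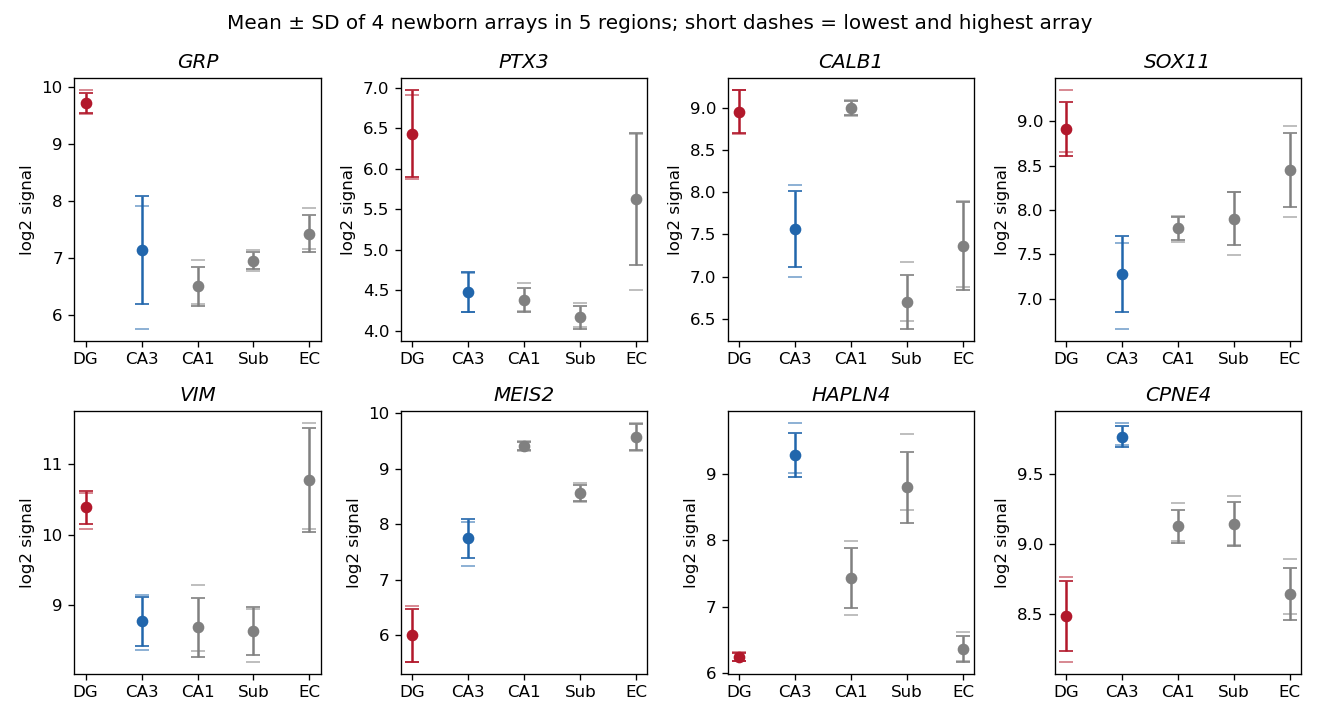
Mean ± SD of the log2 signal (y axis) of 4 newborn arrays in DG (red), CA3 (blue), CA1, Sub and EC (grey) for 8 genes, with short dashes at the lowest and highest array; axes differ between panels. GRP and PTX3 are highest in DG, CALB1 is as high in CA1 (9.0) as in DG, MEIS2 is lowest in DG, and HAPLN4 and CPNE4 are highest in CA3.

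Most called genes had the same sign later. Of the 89 genes higher in newborn DG, 86 had the same sign at 6 months and 86 at 1 year, and of the 71 lower genes 70 and 63. The median difference of the 89 was 0.96 in newborns, 0.82 at 6 months and 0.61 at 1 year, and that of the 71 was −0.94, −0.65 and −0.57. Because these genes were chosen for their newborn difference, smaller later values follow in part from the choice. The share of all genes that kept their sign between ages was not counted. Tested over all genes, the newborn difference departed from that at 6 months in 16 genes (0.0809%) and from that at 1 year in 66 (0.334%), 9 of them in both. Of the 160 genes 4 and 22 were among these. The counts ran from 4 to 86 (6 months) and from 20 to 138 (1 year) when 1 number was left out, both highest without newborn number 14.

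PCP4 had opposite signs in newborns and at 6 months, although its newborn difference alone was not called. Its DG minus CA3 differences were −0.57, −0.50, −0.48 and −1.31 in the newborn pairs, 1.52, 1.44, 0.96 and 1.38 in the 6-month pairs (numbers 9 to 12) and 1.27, 1.05, 1.89 and 0.56 in the 1-year pairs (numbers 5 to 8). Every newborn pair was below 0 and every later pair above it. The newborn difference was lower by −2.04 ± 0.24 than at 6 months (limma adjusted p = 0.00294) and by −1.91 ± 0.24 than at 1 year (adjusted p = 0.00286). The mean signal in CA3 was 9.16 in newborns, 7.76 at 6 months and 7.69 at 1 year, and in DG 8.44, 9.09 and 8.89. PAK6, a serine and threonine kinase, went from −0.37 to 1.24 and 0.77 (−1.61 ± 0.15 against 6 months, adjusted p = 0.000293), with CA3 at 8.68, 7.08 and 7.37 and DG at 8.31, 8.32 and 8.14. The newborn difference of PAK6 alone was not called.

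Other genes lost or gained a difference. PIP5K1B, a phosphoinositide kinase, was −1.12 ± 0.14 in newborns (limma adjusted p = 0.0307) and −0.09 and 0.39 later (−1.52 ± 0.17 against 1 year, adjusted p = 0.00174). PCDH18, a protocadherin, was −0.25, 0.83 and 1.32 at the 3 ages, and KCNJ4, an inward rectifier, 0.59, 1.99 and 1.43. RSPO3, an enhancer of Wnt signalling, went from 0.38, 0.25, 0.71 and 0.46 in the newborn pairs to −0.67, −0.91, −0.65 and −1.08 at 6 months (1.28 ± 0.13, adjusted p = 0.000906) and −0.79 on average at 1 year. TRPS1, a GATA-type repressor, went from 0.51 to −0.46 and −0.50, SLF1, a DNA repair protein, from 0.98 to −0.15 and −0.30, and DTNBP1, dysbindin, from −0.08 to −0.89 and −0.59. Of the genes in this paragraph only PIP5K1B and SLF1 were called in newborns alone.

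Against 1 year BDNF, PTX3, IGFBP2 and VWA5A had a larger newborn difference. BDNF differed by 0.91, 1.16, 2.15 and 0.73 in the newborn pairs and by 0.32, −0.46, −0.37 and 0.14 at 1 year (1.33 ± 0.26, limma adjusted p = 0.0443). Its mean in DG was 9.0, 8.90 and 9.03 at the 3 ages, and in CA3 7.76, 8.88 and 9.12. PTX3 went from 1.96 to 0.98 and 0.41 (1.55 ± 0.26 against 1 year, adjusted p = 0.0199), and here the DG mean was 6.44, 5.21 and 4.55 and that of CA3 4.48, 4.23 and 4.14. IGFBP2, an insulin-like growth factor binding protein, went from 0.89 to −0.17 and −0.46 (1.34 ± 0.22, adjusted p = 0.0177).

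**Figure D5:**
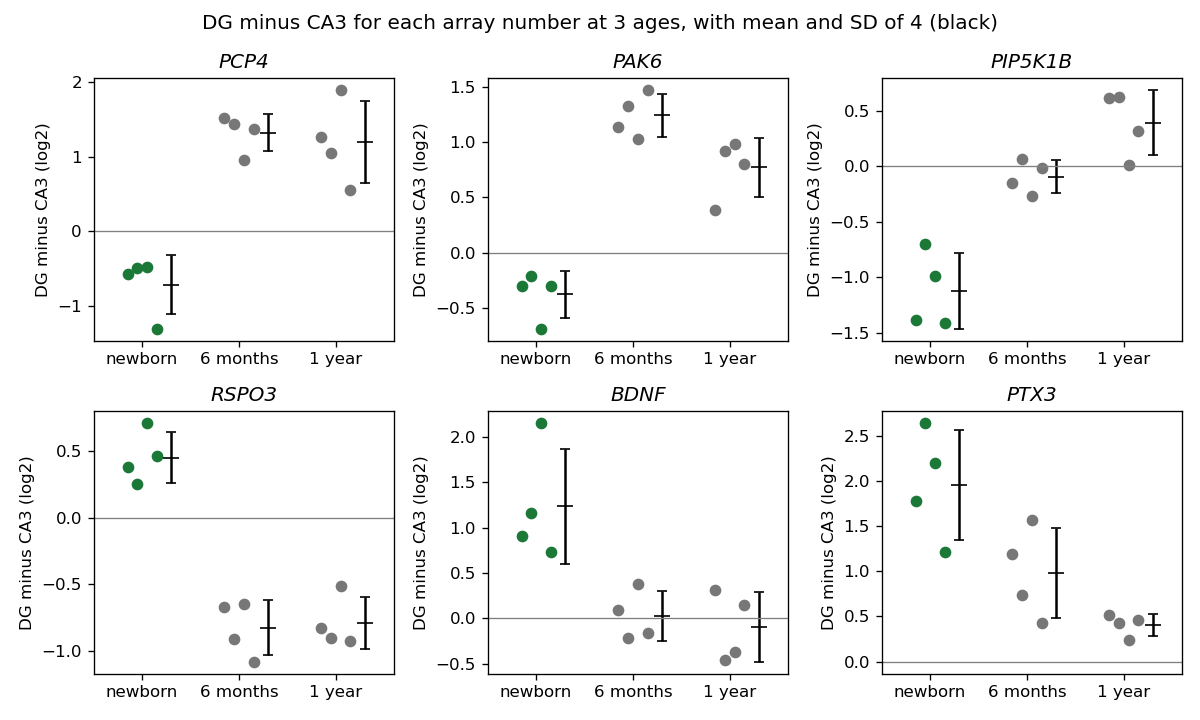
DG minus CA3 difference (y axis, log2) of each array number in newborns (green), at 6 months and at 1 year (grey) for 6 genes, with the mean and SD of 4 in black; axes differ between panels. PCP4 and PAK6 lie below 0 in all newborn pairs and above 0 in all later pairs, RSPO3 does the reverse, and the BDNF and PTX3 differences are smaller at 1 year than at birth. The newborn differences of PCP4, PAK6 and RSPO3 alone were not called.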

How the data were processed

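RNA of 5 hippocampal regions of 16 male rhesus monkeys was read on arrays designed for human transcripts, with biotin label from 50 ng total RNA in 2 amplification cycles, per the labels. The authors deposited log2 values for 54,675 probe sets on 80 arrays. The summarising algorithm is not given in the sources used here. Array medians spread over 0.106, so quantile normalization was applied over all arrays (limma 3.58.1 under R 4.3.3). Of the probe sets 62 were controls, 41,091 had 1 symbol, 1,801 several and 11,721 none. The single-symbol probe set with the highest mean over 80 arrays stood for a gene, and none was filtered out.

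Newborn DG and CA3 were compared with lmFit and eBayes with the array number as a block (n = 4 pairs). The age comparison used DG and CA3 at 3 ages, and the comparison with CA1, Sub and EC the newborn arrays. Correlations of same-number deviations from the group mean were −0.50 to −0.08 in newborns, 0.28 to 0.48 at 6 months and 0.04 to 0.62 at 1 year. For each newborn DG array a CA3 array of another number correlated better (0.20, 0.22, 0.44 and 0.49). In probe sets where 1 array stood over 1 log2 apart in both regions and in the same direction, it had the same number in 7 of 9. The fit without the block is given beside the result.

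The members, the 42 gene lists (845 of 921 genes measured) and the rules were chosen with earlier results of these data known. Genes named were the 15 largest called differences per direction with 1 sign in all pairs and the higher mean above 5.98, all neuronal subtype markers, up to 8 members of each other list by p, and up to 6 per direction of each further comparison, leaving out uncharacterised loci. Each fit was tested on simulated data with 200 changed genes. Figures used Python 3.11.15 and matplotlib 3.10.9.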

Additional observations from a re-analysis of the deposited data

Results flagged for a closer look

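In 161 named genes the 4 DG and the 4 CA3 arrays were each examined for an array that lay apart, by the gap to its nearest fellow over the whole range, against Dixon's critical value for 4 arrays. Of 322 such groups 19 had one, where chance gives about 1 in 20. In CA3 number 14 was the low array in 7 of the 19: TTC28 (6.21), FABP7 (9.82), PCNA (6.48), GFAP (10.09, the other 3 at 10.76 to 10.82), SOX10 (6.43, the others at 7.07), VCAN (5.93) and IGFBP5 (6.79, the others at 8.04 to 8.10). In CA3 number 15 ZFPM2 (7.26), CHRM3 (9.31) and WNT5A (5.88, the others at 7.38 to 7.64) were low, and in CA3 number 16 AJAP1 (6.85) and DMRTA2 (5.76) were low and AMIGO2 (5.18) was high. In DG number 15 lay high in DRC9 (6.06), ID4 (10.84), HEY2 (7.58) and SLF1 (6.24), and in number 14 TDO2 (4.64) was high and MALAT1 (7.31, the others at 10.35 to 10.84) low.

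The DG minus CA3 difference departed between ages by a test of the difference itself, in limma, for several genes. Newborn minus 6 months was 1.28 for RSPO3, 1.13 for SLF1, 0.96 for TRPS1, 0.80 for DTNBP1, −2.04 for PCP4, −1.61 for PAK6, −1.40 for KCNJ4, −1.08 for PCDH18 and −1.03 for PIP5K1B. Of 17 alternative fits PCP4 and PAK6 were called in 17, RSPO3 in 16, TRPS1 in 13 and DTNBP1 in 11. KCNJ4 was called in 8 of 17, PCDH18 and PIP5K1B in 5 of 17 and SLF1 in 10 of 16. Newborn minus 1 year was 1.24 for RSPO3, 1.29 for SLF1, 1.55 for PTX3, 1.34 for IGFBP2, 1.33 for BDNF, 1.25 for VWA5A, −1.91 for PCP4, −1.14 for PAK6, −1.57 for PCDH18 and −1.52 for PIP5K1B. BDNF was called in 8 of 17 alternative fits, PTX3 in 12 of 16, IGFBP2 in 15 of 17 and VWA5A in 16 of 17. The others were called in all.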

How the results depend on the processing

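Newborn DG minus CA3 gave 160 called genes in the main fit, 539 without the replicate block, 1493 with the spread of all 20 newborn arrays, 252 with a prior that follows signal and 265 with each probe set tested on its own, an alternative added after seeing the data. With the GAPDH ratio as a covariate beside the replicate block it gave 0 by limma, where 1448 genes had an unadjusted p under 0.05 against 2452 in the main fit; 1 more term leaves 2 residual degrees of freedom. Leaving out 1 pair gave 1 to 113. On the values as deposited, centred arrays, quantile normalization of the 8 arrays alone, the mean of probe sets, the probe set highest over the 8 arrays and the brighter genes alone it was 161, 135, 160, 114, 177 and 192. The difference from 6 months was called in 16 genes, 31.3% of them higher in newborns, against 9 (55.6%) as deposited, 8 (62.5%) centred, 6 without the replicate block, 4 with the mean of probe sets and 4 to 86 without 1 number. The difference from 1 year was called in 66, against 41 without the replicate block and 20 to 138 without 1 number. DG against CA1, Sub and EC gave 3271, and 1903 to 4007 without 1 number. CA3 against them gave 1935, 46.9% higher in CA3, against 3471 without the replicate block, 330 to 3134 without 1 number, 1693 (36.6%) as deposited and 1679 (29.5%) centred. For those 4 comparisons the paired and other alternatives not given here stayed within 1.5 times of the main count. Among genes named, PROX1 changed sign, from −0.005 to 1.23 (adjusted p = 0.0135) with the mean of all probe sets, and no other called value did under any alternative run. The causes were not tested. The array has no read depth, and genes near its floor, such as TDO2, DSP, TOP2A, IYD, MAP3K15, MAN1A1 and CSF2RB, carry little information.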
